A study of Homo sapiens with 8 samples.

Results

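Amino acid transporters of the solute carrier (SLC) families were examined in MM1.S, an established line of malignant human plasma cells (multiple myeloma). The members were 10 genes taken by name from the table of 16295 listed genes, all 10 of which were present: the heavy chain SLC3A2, its light chains SLC7A5, SLC7A6 and SLC7A11, the cationic transporter SLC7A1, the neutral exchangers SLC1A4 and SLC1A5, the sodium-coupled carriers SLC38A1 and SLC38A2, and the facilitated carrier SLC43A1. RNA was sequenced after 24 h with MS177, MS177N1 or C24, each at 0.5 uM, or with the solvent DMSO, with 2 libraries for each group, 8 altogether. At issue was EZH2, a histone methyltransferase, and a compound meant to degrade it. From background knowledge, MS177 is the degrader and acts through the ubiquitin ligase receptor CRBN, MS177N1 is a related compound without that degrading action, and C24 is the EZH2 inhibitor on which MS177 is based. All 4 groups are the same line grown in RPMI1640 with FBS, so the values are those of 1 line at 1 dose and 1 time.

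Cells take up essential amino acids, and much of their glutamine, serine and cystine, through carriers in the plasma membrane. SLC3A2 is a membrane glycoprotein that carries no amino acid itself and brings light chains of the SLC7 family to the cell surface. Several of these genes are textbook targets of ATF4, a transcription factor that is made when amino acids run short or proteins misfold, and others are known targets of MYC. Plasma cells secrete large amounts of immunoglobulin and have a correspondingly large demand for amino acids.

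The reads in listed genes numbered between 20000665 and 26619099 per library. Values below are normalized reads, that is, whole reads recovered from the deposited log2 values and divided by the authors' size factors. Log2 fold changes come from limma with their standard error (SE), and a gene was called at a Benjamini-Hochberg adjusted p under 0.05 over the 14164 genes tested. All 10 members passed the filter on low reads. Plasma cell markers were abundant in every library: 10 of 11 were listed, with summed normalized reads of 129600.0 and 127298 with MS177 and between 203233 and 208150 in the other 6 libraries. Of the 10, 8 fell and 1 rose with MS177 against DMSO, where 29% of all tested genes fell and 28.9% rose. The part of the fall of these markers in the transporter results was not tested. T and NK cell markers were nearly absent, with 2 of 9 listed and CD3D, CD3G, CD4, CD8B, CD2, NKG7 and KLRD1 not in the table. Their 2 listed markers summed to 36.4 and 32.7 normalized reads with MS177 and to between 53.7 and 79.7 in the other 6. Stromal and epithelial markers, with 8 of 9 listed and DCN not in the table, summed to 108 and 96.3 with MS177 and to between 64.9 and 131 in the other 6. Of 9 monocyte and granulocyte markers 6 were listed, with LYZ, MPO and FCN1 not in the table, and their sum was 1732 and 1625 normalized reads with MS177 against 307 to 381 in the other 6. CD68, also a lysosomal glycoprotein, made up most of that sum. All 4 of the tested markers of this list, CD68, AIF1, CD163 and ITGAM, rose with MS177 against DMSO, as 28.9% of all tested genes did. AIF1 had 51.4 and 42.1 normalized reads with MS177 and at most 3.30 in the other 6 libraries, CD163 had 24.6 and 24.3 and at most 0.961, and ITGAM had 61.1 and 72.9 with MS177 and 14.3 and 12.5 in DMSO. CD14 had 9.64 and 10.3 with MS177 and at most 9.61 in the other 6, and CSF1R was at 0 and 3.74 with MS177 and at most 1.92 in the other 6. The part of these cells or markers in the transporter results was not tested. Mitochondrially encoded genes took 1.54% and 1.69% of reads with MS177, 1.65% and 1.73% with MS177N1, 1.49% and 1.47% with C24, and 2.10% and 2.07% in DMSO, and their part in the results was likewise not tested. The labels do not say whether the 2 libraries of a group came from separate cultures. All p-values therefore speak for the spread between these libraries alone, which may be technical.

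With MS177, 8 of the 10 transporters rose against DMSO, 1 fell and 1 was not called. SLC43A1, a facilitated carrier of leucine and other large neutral amino acids, rose most by fold, followed by the cystine carrier SLC7A11, the neutral amino acid carrier SLC38A2 and the heavy chain SLC3A2. Over all genes tested, limma called 57.9%, with 28.9% higher and 29% lower, and 9.63% were called and at least 2-fold higher. The members' median log2 fold change was 0.58, against 0.00 for all genes tested. Both MS177 libraries lay above the other 6 libraries for 8 members, a position that 33.2% of all tested genes held, and below them for 1 member, a position held by 31.7%. Libraries were scaled to one another, so more of a transcript per cell and less RNA of other genes per cell cannot be told apart.

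**Figure D1:**
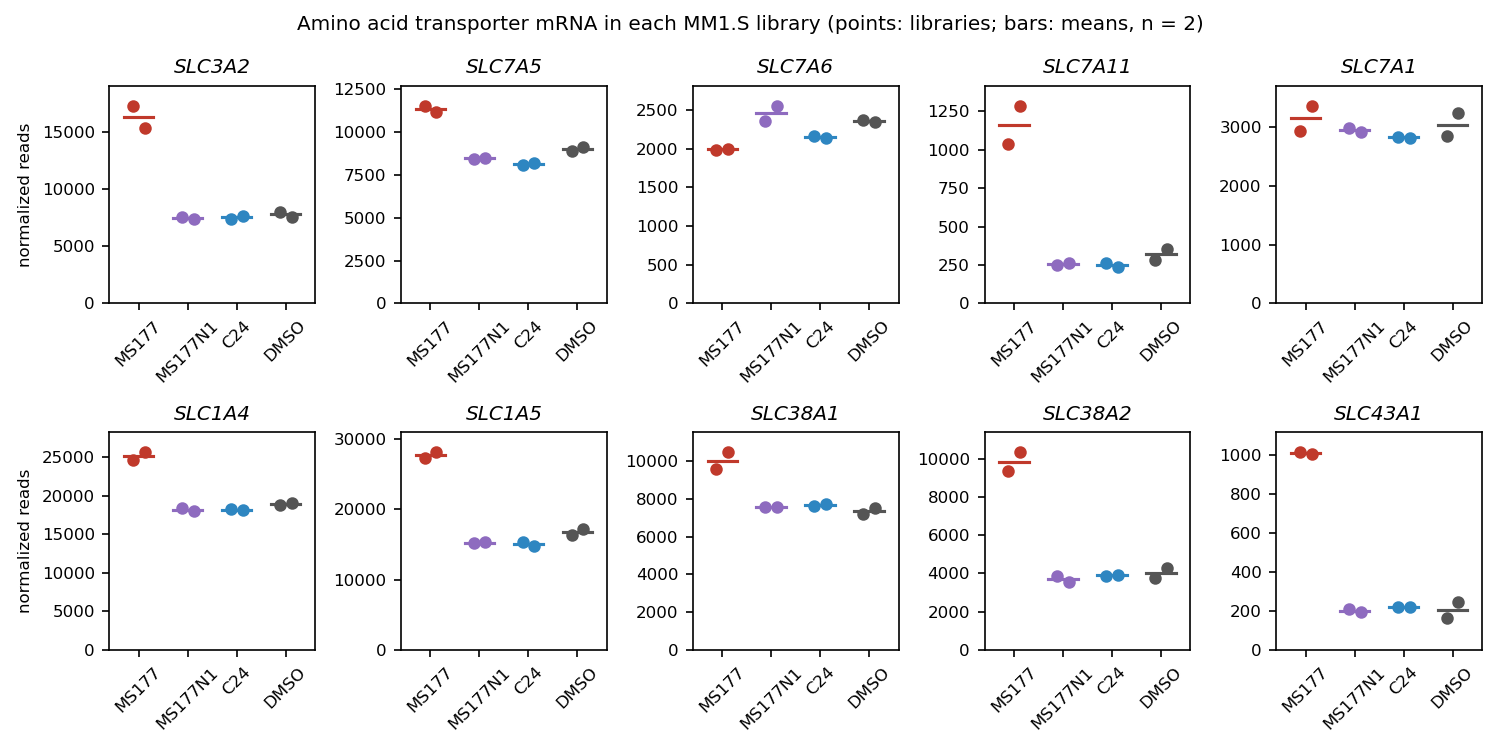
Normalized reads (vertical axes, from 0) of each of the 10 transporters in every library; points are libraries, bars are means of 2 libraries, and groups run MS177, MS177N1, C24 and DMSO. SLC43A1 sat at 1014 and 1006 with MS177 and between 163 and 248 in the other 6 libraries, while the groups overlapped for SLC7A1.

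The heavy chain SLC3A2 (also CD98) had 17291 and 15319 normalized reads with MS177, 7539 and 7428 with MS177N1, 7408 and 7656 with C24, and 8011 and 7552 in DMSO. The MS177 libraries stood well above the rest, and the other 6 lay within 1.08-fold of one another. SLC3A2 was 2.09-fold higher with MS177 than in DMSO (log2 fold change 1.07, SE 0.05, limma adjusted p = 2.12e-10).

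SLC7A5, the light chain that exchanges leucine and other large neutral amino acids for glutamine, had 11514 and 11135 normalized reads with MS177, 8432 and 8497 with MS177N1, 8054 and 8173 with C24, and 8894 and 9127 in DMSO. Its MS177 libraries were the highest, but the rise was smaller than that of its heavy chain: 1.26-fold against DMSO (log2 fold change 0.33, SE 0.04, limma adjusted p = 6.25e-06). SLC7A5 has near-identical pseudogene copies to which reads could be split, so its value carries some uncertainty. The listed copy SLC7A5P2 had 62.2 and 54.2 normalized reads with MS177 and 24.2 and 39.4 in DMSO, and SLC7A5P1 had 19.3 and 16.8 with MS177 and 18.7 and 17.3 in DMSO, both small beside SLC7A5 itself.

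SLC7A11, the light chain known as xCT, imports cystine in exchange for glutamate and so supplies cysteine for glutathione. It had 1036 and 1285 normalized reads with MS177, 252 and 262 with MS177N1, 263 and 234 with C24, and 284 and 357 in DMSO. The lowest MS177 library was far above the highest of the others, in a gene that was weakly expressed without MS177. The rise was 3.62-fold against DMSO (log2 fold change 1.86, SE 0.13, limma adjusted p = 7.00e-09).

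SLC7A6, a light chain that exchanges arginine and lysine for neutral amino acids with sodium, was the member that fell. It had 1987 and 1994 normalized reads with MS177, 2363 and 2554 with MS177N1, 2157 and 2142 with C24, and 2370 and 2344 in DMSO. Both MS177 libraries were the lowest, and the fall was small (log2 fold change -0.24, SE 0.06, limma adjusted p = 0.00167). In GENCODE release 29 (GRCh38) the opposite-strand gene SLC7A6OS shares 53.0% of the exon bases of SLC7A6, and since no source used here says that counting used strand, the reads of these genes cannot be told apart. SLC7A6OS had 1262 and 1362 normalized reads with MS177 and 797 and 899 in DMSO (log2 fold change 0.63, SE 0.09, limma adjusted p = 1.23e-05), the other direction from SLC7A6.

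SLC7A1, which takes up arginine and lysine without the heavy chain, had 2938 and 3368 normalized reads with MS177, 2990.0 and 2922 with MS177N1, 2842 and 2824 with C24, and 2847 and 3238 in DMSO. Its groups overlapped and it was not called against DMSO (log2 fold change 0.05, 95% interval -0.10 to 0.20, limma adjusted p = 0.555). Against C24 the difference was 0.15 (95% interval 0.00 to 0.30, limma adjusted p = 0.0767) and against MS177N1 it was 0.09 (limma adjusted p = 0.290). These depended on 1 library: without MS177 replicate 1, SLC7A1 was called higher against C24 (0.25, limma adjusted p = 0.00236) and against MS177N1 (0.19, limma adjusted p = 0.0184). Total-read scaling also put it past the threshold against C24 (0.24, limma adjusted p = 0.0103).

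Both exchangers of the SLC1 family rose. SLC1A5, the main sodium-dependent exchanger of glutamine, had 27369.9 and 28116 normalized reads with MS177, 15171 and 15322 with MS177N1, 15344 and 14798 with C24, and 16333 and 17246 in DMSO. It was 1.65-fold higher with MS177 than in DMSO (log2 fold change 0.72, SE 0.04, limma adjusted p = 7.05e-10). SLC1A4, a paralog that exchanges alanine, serine, cysteine and threonine, rose less. Its normalized reads were 24643 and 25620.3 with MS177, 18338 and 17949 with MS177N1, 18229 and 18118 with C24, and 18768 and 19063 in DMSO, a 1.33-fold rise against DMSO (log2 fold change 0.41, SE 0.04, limma adjusted p = 1.88e-07). In GENCODE release 29 the opposite-strand gene AC008622.2 shares 23.4% of the exon bases of SLC1A5, so its reads may hold some of that gene's.

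SLC38A1 and SLC38A2 bring glutamine, alanine and other small neutral amino acids into the cell together with sodium. SLC38A2, known for its induction when amino acids are withdrawn, had 9338 and 10342 normalized reads with MS177, 3879 and 3577 with MS177N1, 3875 and 3916 with C24, and 3758 and 4281 in DMSO. The MS177 libraries had more than any other library by a wide margin, and the rise against DMSO was 2.45-fold (log2 fold change 1.29, SE 0.07, limma adjusted p = 4.54e-10). SLC38A1 had 9567 and 10470.1 normalized reads with MS177, 7579 and 7555 with MS177N1, 7616 and 7732 with C24, and 7193 and 7516 in DMSO. It rose 1.36-fold (log2 fold change 0.44, SE 0.05, limma adjusted p = 1.20e-06), so that the SLC38 pair, of similar function, differed in the size of their rise.

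SLC43A1 carries leucine and other large neutral amino acids down their gradient and needs neither sodium nor the heavy chain. It had 1014 and 1006 normalized reads with MS177, 209 and 193 with MS177N1, 221 and 218 with C24, and 163 and 248 in DMSO. The DMSO libraries differed by 1.52-fold, and SLC43A1 had the widest interval of the 10. The rise was 5.0-fold (log2 fold change 2.32, SE 0.15, 95% interval 1.99 to 2.65, limma adjusted p = 7.15e-09), and 97.2% of all tested genes had a lower log2 fold change.

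**Figure D2:**
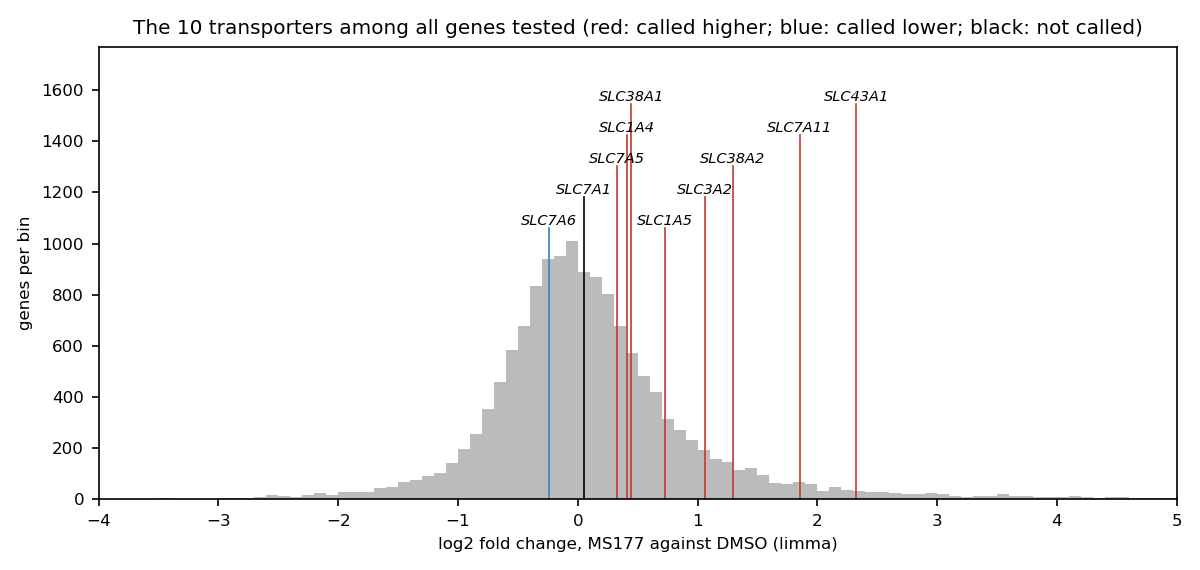
Histogram of limma log2 fold changes of MS177 against DMSO (horizontal axis) for the 14164 genes tested, in bins of 0.1, with 8 genes below and 33 above the plotted range; vertical lines mark the 10 transporters. SLC43A1 at 2.32 and SLC7A11 at 1.86 lie in the right tail, and SLC7A6 at -0.24 and SLC7A1 at 0.05 lie in the body of the distribution.

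At the same dose and time, 8 of the transporters also rose with MS177 against each related compound. In MS177 against MS177N1, 8 members were called higher and 1 lower, where limma called 57.4% of all tested genes, 28.8% higher and 28.6% lower. In MS177 against C24, 8 members were called higher and 0 lower, where 58.1% of all tested genes were called, 29.1% higher and 29% lower. The members not called there were SLC7A6 and SLC7A1. Both comparisons use the same MS177 libraries as the comparison with DMSO, so the values stand side by side and are not independent. SLC43A1 differed by 2.33 on the log2 scale from MS177N1 and by 2.20 from C24, SLC7A11 by 2.16 and 2.21, SLC38A2 by 1.40 and 1.33, and SLC3A2 by 1.12 and 1.11. SLC1A5 differed by 0.86 from MS177N1 and by 0.88 from C24. SLC7A6 was called lower against MS177N1 (-0.30, SE 0.06, limma adjusted p = 0.000273), and against C24 its difference was -0.11 (95% interval -0.23 to 0.01, limma adjusted p = 0.107).

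None of the 10 transporters was called by limma or limma-voom with MS177N1 or C24 against DMSO. For MS177N1, limma and limma-voom each called 0 of 10 members, and 3 had an unadjusted p under 0.05, where limma called 0.0353% of all tested genes and 5.07% had an unadjusted p under 0.05. For C24 the counts were 0 of 10 by limma and by limma-voom and 4 at an unadjusted p under 0.05, where 0.0918% of all tested genes were called and 5.38% had an unadjusted p under 0.05. SLC7A11 had the largest difference with both compounds, -0.31 with MS177N1 (95% interval -0.58 to -0.03, limma adjusted p = 0.965) and -0.36 with C24 (95% interval -0.63 to -0.08, limma adjusted p = 0.897). SLC1A5 was at -0.14 with MS177N1 (95% interval -0.23 to -0.05, limma adjusted p = 0.965) and at -0.16 with C24 (95% interval -0.24 to -0.07, limma adjusted p = 0.579). For SLC7A5, SLC7A11, SLC1A4 and SLC1A5 all 4 MS177N1 and C24 libraries lay below both DMSO libraries, as they did for 8.34% of all tested genes, and none of these passed the test. The 95% intervals of all 10 members together reached from -0.58 to 0.33 with MS177N1 and from -0.63 to 0.46 with C24.

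The related compounds MS177N1 and C24 were also set against each other. limma and limma-voom each called 0 of 10 members, 1 member had an unadjusted p under 0.05, and over all tested genes these were 0.0141% called and 4.48%. That member was SLC7A6, at 0.19 in MS177N1 against C24 (95% interval 0.07 to 0.31, limma adjusted p = 0.997). The intervals of the 10 members together reached from -0.46 to 0.32.

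**Figure D3:**
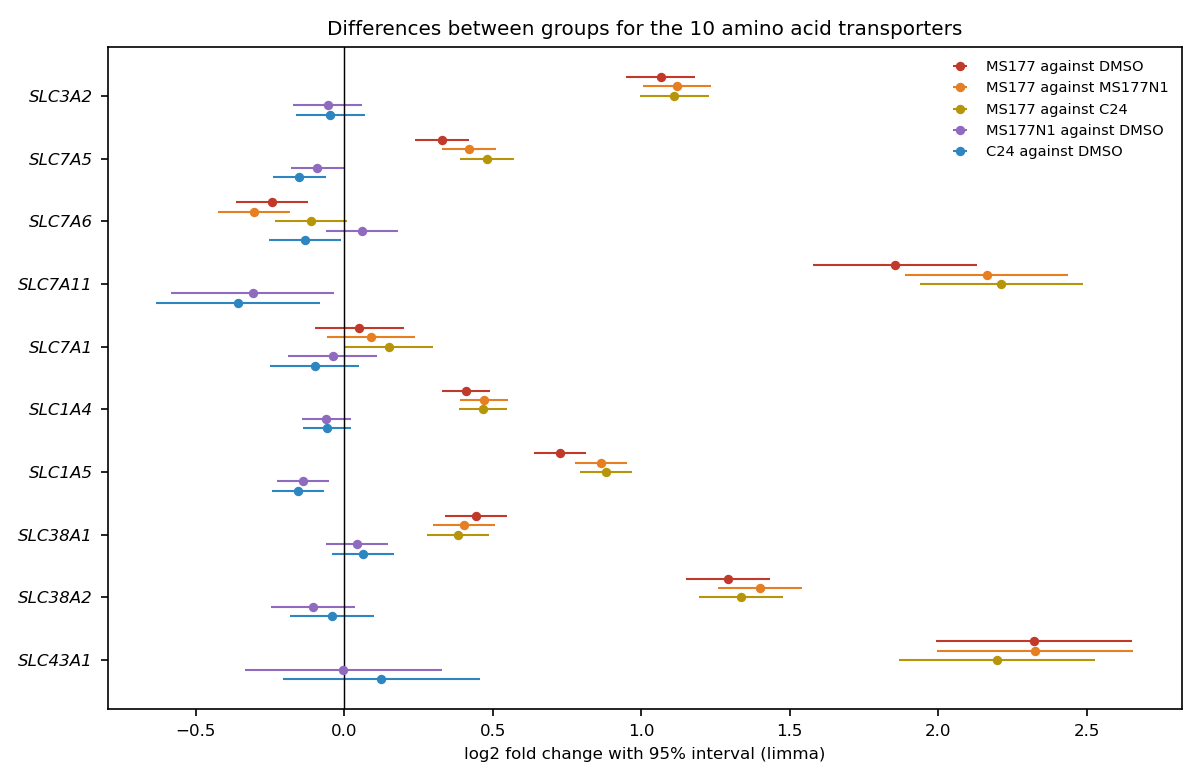
Log2 fold changes (horizontal axis) of the 10 transporters in 5 comparisons; points are limma estimates and bars their 95% intervals. The 3 comparisons with MS177 on top lie together to the right for 8 genes, with SLC43A1 between 2.20 and 2.33, while MS177N1 and C24 against DMSO lie near 0, SLC7A11 lowest at -0.31 and -0.36.

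Levels can be compared between genes only per length, here as normalized reads per kilobase of exons merged over the transcripts of GENCODE release 29. SLC1A5 had the highest level in all 4 groups, 8326 ± 158 per kilobase with MS177 and 5039 ± 194 in DMSO (SD, n = 2 each). SLC3A2 and SLC1A4 took the next places: SLC3A2 was at 6144 ± 526 per kilobase with MS177 and 2932 ± 122 in DMSO, and SLC1A4 at 5356 ± 147 with MS177 and 4031 ± 44.5 in DMSO. SLC3A2 thus stood above SLC1A4 with MS177 and below it in the other 3 groups, but with the median transcript length in place of merged exons SLC1A4 was the higher of them in every group. SLC7A5 followed at 2469 ± 58.5 per kilobase with MS177 and 1964 ± 36.0 in DMSO, a place that went to SLC38A1 or, with MS177, to SLC38A2 under the median transcript length.

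The 3 carriers with the largest folds stood lower. SLC38A2 was at 1966 ± 142 per kilobase with MS177 and 803 ± 73.9 in DMSO, and SLC38A1 at 1074 ± 68.4 with MS177 and 788 ± 24.5 in DMSO. In DMSO these carriers did not differ beyond their spread, and with the median transcript length SLC38A1 was the higher in DMSO, so their order is uncertain. SLC7A1 was at 429 ± 41.3 per kilobase with MS177 and 414 ± 37.6 in DMSO, SLC43A1 at 374 ± 1.94 with MS177 and 76.0 ± 22.3 in DMSO, and SLC7A6 at 313 ± 0.801 with MS177 and 371 ± 2.87 in DMSO. SLC7A11 had the lowest level per length of the 10 in every group, 120.3 ± 18.2 per kilobase with MS177 and 33.2 ± 5.33 in DMSO, so that its 3.62-fold rise left it below the level of SLC7A6. SLC43A1, ninth of the 10 in DMSO, passed SLC7A6 with MS177.

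All 10 members together took 0.498% and 0.509% of the reads in listed genes with MS177, against 0.297% and 0.294% with MS177N1, 0.290% and 0.291% with C24, and 0.302% and 0.314% in DMSO. These shares do not depend on the scaling between libraries, and the MS177 libraries were the highest. Within the 10, SLC1A4 and SLC1A5 gave the most reads in every library. SLC3A2 accounted for 16.2% and 14.1% of member reads with MS177 and for 11.7% and 10.6% in DMSO, and SLC38A2 for 8.75% and 9.52% with MS177 and 5.48% and 6.03% in DMSO.

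Light chains need SLC3A2 to reach the surface, so their mRNA was also set against it within each library, as a ratio that does not depend on scaling. The log2 ratio of SLC7A5 to SLC3A2 was -0.59 and -0.46 with MS177 and lay between 0.09 and 0.27 in the other 6 libraries. For SLC7A6 to SLC3A2 it was -3.12 and -2.94 with MS177 and between -1.84 and -1.54 in the other 6. SLC7A11 went the other way, with -4.06 and -3.58 with MS177 and between -5.03 and -4.40 in the other 6. MS177 libraries therefore had fewer SLC7A5 and SLC7A6 reads and more SLC7A11 reads for each heavy chain read. In all 3 ratios they did not overlap the other libraries. As stated above, SLC7A6 reads cannot be told apart from those of SLC7A6OS. These ratios are given as a description with no test.

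**Figure D4:**
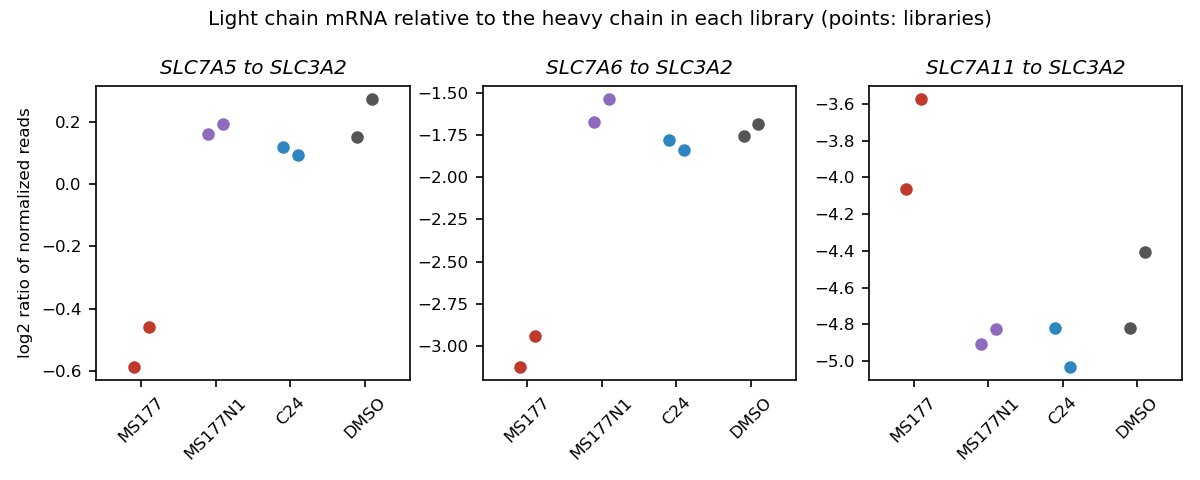
Log2 ratio of normalized reads of a light chain to the heavy chain SLC3A2 (vertical axes, with their own ranges) in each library; points are libraries, 2 per group. With MS177 the ratio is lower for SLC7A5 (-0.59 and -0.46) and SLC7A6 (-3.12 and -2.94) and higher for SLC7A11 (-4.06 and -3.58) than in all other libraries.

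Other partners of SLC3A2 rose as well. SLC7A7, a light chain that exports arginine and lysine in exchange for neutral amino acids, had 469 and 536 normalized reads with MS177, 157 and 188 with MS177N1, 221 and 207 with C24, and 169 and 207 in DMSO (log2 fold change against DMSO 1.42, SE 0.14, limma adjusted p = 4.24e-07). SLC7A8, a light chain for neutral amino acids that was chosen for mention once its values were known, had 129 and 157 with MS177 and between 5.46 and 12.1 in the other 6 libraries (3.54, SE 0.42, limma adjusted p = 2.56e-06). Both were far below SLC7A5 in reads in every library.

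Among 43 other amino acid transporters of the cell surface and lysosome, 20 were listed and tested, of which 9 rose and 8 fell with MS177 against DMSO (median log2 fold change 0.34, against 0.00 for all genes tested). By the same test 28.9% of all tested genes rose and 29% fell. SLC6A9, a glycine transporter, had 3997 and 3563 normalized reads with MS177 and 626 and 542 in DMSO (log2 fold change 2.69, SE 0.09, limma adjusted p = 1.42e-12). SLC6A6, the taurine transporter, had 618 and 626 with MS177 and 1251 and 1296 in DMSO (-1.03, SE 0.07, limma adjusted p = 8.69e-09). SLC6A15, a carrier of neutral amino acids, had 63.2 and 58.0 with MS177 and 120.0 and 143 in DMSO (-1.10, SE 0.18, limma adjusted p = 8.46e-05). The rest of the transporters thus moved in both directions.

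Of 12 mitochondrial carriers, 11 were listed and 9 tested, and 1 rose, 5 fell and 3 were not called with MS177 against DMSO (median -0.20), where 28.9% of all tested genes rose and 29% fell. SLC25A22, a glutamate carrier, was at -1.14 (SE 0.08), SFXN1, a serine carrier, at -0.81 (SE 0.06), the ornithine carrier SLC25A15 at -0.63 (SE 0.10) and the aspartate and glutamate carrier SLC25A12 at -0.57 (SE 0.10). Their limma adjusted p ran from 8.67e-09 to 9.71e-05. The carrier that rose, SFXN3, averaged 16.8 normalized reads with MS177 and 5.09 in DMSO, and was named because it was the lone rise (1.51, SE 0.60, limma adjusted p = 0.0432).

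Genes that use the amino acids these carriers deliver moved in both directions, where 28.9% of all tested genes rose and 29% fell. Of 11 genes of cystine use and glutathione, 4 rose and 5 fell with MS177 against DMSO (median -0.24). CHAC1, which degrades glutathione, rose by 3.05 on the log2 scale (SE 0.10), and CBS, the first enzyme of cysteine synthesis from homocysteine, by 2.73 (SE 0.20). CTH, the enzyme after CBS, had 169 and 125 normalized reads with MS177 and 56.1 and 54.8 in DMSO, and rose, whereas glutathione reductase GSR fell by 0.60 (SE 0.05). Of 11 genes of glutamine and asparagine use, 5 rose and 3 fell (median 0.07). Asparagine synthetase ASNS rose by 1.56 (SE 0.06) and the alanine aminotransferase GPT2 by 1.52 (SE 0.06), while the asparaginase ASRGL1 fell by 0.63 (SE 0.08) and PPAT, which spends glutamine on purine synthesis, by 0.39 (SE 0.07). Across these 8 genes limma gave adjusted p from 3.15e-12 to 0.000276.

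Of 27 genes of amino acid sensing upstream of the growth kinase mTORC1, 6 rose, 10 fell and 11 were not called (median -0.10), so that 16 of 27 were called, near the 57.9% of all tested genes. SESN2, a leucine sensor, rose by 2.86 (SE 0.07), RRAGC, a GTPase that recruits the kinase to the lysosome, by 1.02 (SE 0.09), and C7orf60, a sensor of S-adenosylmethionine, by 0.91 (SE 0.14), whereas LAMTOR5, a lysosomal anchor of those GTPases, fell by 0.67 (SE 0.09). Here limma gave adjusted p from 3.22e-14 to 2.88e-05. Over the 93 tested genes of the lists other than members and markers, limma and limma-voom each called 0 with MS177N1 against DMSO and 0 with C24 against DMSO, with 8 and 7 at an unadjusted p under 0.05.

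**Figure D5:**
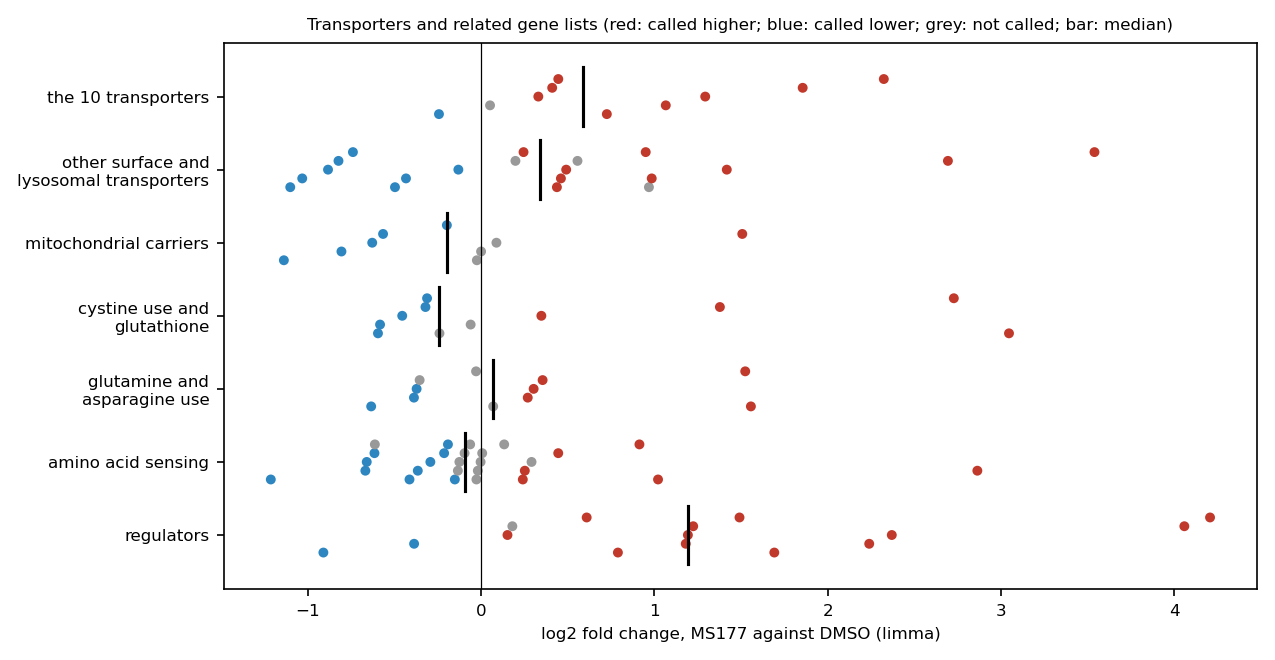
Limma log2 fold changes of MS177 against DMSO (horizontal axis) for the 10 transporters and 6 related lists of tested genes; each point is a gene, coloured by its call, and black bars are list medians. The transporters have a median of 0.58 and the regulators of 1.19, and every list has calls on both sides of 0.

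Regulators known to act on these transporter genes rose in 12 of 15 tested cases and fell in 2 (median 1.19, against 0.00 for all genes tested). For comparison, 28.9% of all tested genes rose and 29% fell with MS177 against DMSO. ATF4 had 18689.9 and 16454 normalized reads with MS177, 6624 and 6635 with MS177N1, 6517 and 6509 with C24, and 6691 and 5820.2 in DMSO (log2 fold change against DMSO 1.49, SE 0.07, limma adjusted p = 4.87e-10). MYC had 8086 and 7568 with MS177, 13674 and 13538 with MS177N1, 14215 and 13874 with C24, and 15202 and 14228 in DMSO (-0.91, SE 0.05, limma adjusted p = 2.09e-10). ATF4 mRNA was thus higher and MYC mRNA lower in both MS177 libraries than in all others.

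NFE2L2, an activator of antioxidant genes, had 1601 and 1688 normalized reads with MS177, 934 and 838 with MS177N1, 892 and 919 with C24, and 883 and 1025 in DMSO (0.79, SE 0.08, limma adjusted p = 7.54e-07). The stress-induced factor ATF3 rose by 4.21 (SE 0.07), DDIT3 by 4.06 (SE 0.11), CEBPB by 1.69 (SE 0.10) and the pseudokinase TRIB3 by 2.37 (SE 0.06); limma gave these an adjusted p from 1.14e-15 to 1.34e-09. These are mRNA levels, and no factor's binding was measured here.

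Promoter sequences were searched, as a description, for the letters that ATF4, MYC and the product of NFE2L2 are known to bind. RefSeq windows (GRCh38.p14) from 250 bases before to 50 bases after a transcript start were used for 9 of the 10 members, 16 windows in all; SLC7A11 had none. The letters TGATGNAA, on either strand, are the C/EBP-ATF element through which ATF4 acts with its partners. They occurred in 5 of the 16 windows, in SLC3A2, SLC7A1, SLC1A4, SLC1A5 and SLC38A1, and in 3.62% of all 35116 windows. The 30 bases around each match are shown 5′ to 3′ on the strand of the gene, with the element in capitals, because they show how the matches differ in their open position and in their strand.
SLC1A4 (chr2:64989381-64989410, plus strand): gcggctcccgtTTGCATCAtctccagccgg
SLC1A5 (chr19:46784893-46784922, minus strand): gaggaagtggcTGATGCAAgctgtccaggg
SLC38A1 (chr12:46266502-46266531, minus strand): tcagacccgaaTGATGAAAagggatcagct
SLC7A1 (chr13:29595663-29595692, minus strand): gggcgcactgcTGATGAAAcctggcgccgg
SLC3A2 (chr11:62881719-62881748, plus strand): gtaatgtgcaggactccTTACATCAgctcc

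SLC1A4 and SLC1A5 held the same 8 letters on opposite strands. They began 7 bases before 1 of the starts of SLC1A4 and 97 bases before 1 of the starts of SLC1A5. SLC38A1 and SLC7A1 held another shared form of the element. The match in SLC38A1 began 4 bases before 1 of its starts. In SLC7A1 the match began at base 8 counted from its start, and in SLC3A2 at base 38 counted from 1 of its starts. SLC1A4, SLC1A5, SLC38A1 and SLC3A2 have more than 1 window, and each held the match in 1 window, not that of its outermost start. SLC7A5, SLC7A6, SLC38A2 and SLC43A1 held no match in these windows. Bases outside the windows were not searched, and the part of the element in the mRNA levels was not tested. A match is a description of letters and not a bound site.

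The letters CACGTG, the E-box that MYC binds, occurred in 3 of the 16 windows, in SLC7A5, SLC1A5 and SLC43A1, and in 7.26% of all windows. The letters TGACNNNGC, on either strand, are the core of the antioxidant response element bound by the product of NFE2L2; they occurred in 5 of the 16 windows, in SLC3A2, SLC7A5, SLC7A6, SLC7A1 and SLC1A5, and in 13.3% of all windows. No match overlapped another. The 250 bases before the start are shown for SLC7A5 and SLC43A1, with the E-box in capitals, because both hold it before their outermost start. The E-box begins 130 bases before the start of SLC7A5 and 112 bases before that of SLC43A1. Whether MYC acted on these genes here was not tested.
SLC7A5 (chr16:87869508-87869757, minus strand): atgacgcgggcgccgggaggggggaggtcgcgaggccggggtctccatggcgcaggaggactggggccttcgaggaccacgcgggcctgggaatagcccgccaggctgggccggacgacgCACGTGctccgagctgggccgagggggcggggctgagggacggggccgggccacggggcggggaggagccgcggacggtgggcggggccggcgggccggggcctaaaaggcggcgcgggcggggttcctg
SLC43A1 (chr11:57515703-57515952, minus strand): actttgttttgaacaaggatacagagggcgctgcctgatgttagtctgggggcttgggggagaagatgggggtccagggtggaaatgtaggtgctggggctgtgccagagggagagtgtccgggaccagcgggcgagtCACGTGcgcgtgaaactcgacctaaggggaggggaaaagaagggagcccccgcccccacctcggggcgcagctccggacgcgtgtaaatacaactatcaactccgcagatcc

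Genes with the nearest pattern were found for each member by the Euclidean distance between log2 values over the 8 libraries, centred on each gene's mean. The nearest to SLC43A1 was CD68, the monocyte marker above (distance 0.214), and then IL4I1, an amino acid oxidase (0.341). SLC7A11 had ALPK1 (0.346) and CSRNP1 (0.384), and SLC38A2 had JMJD1C (0.154) and STAT3 (0.157). Next to SLC3A2 stood PHLDA1 (0.137) and SH2D3A (0.142), and next to SLC1A5 stood SORT1 (0.0991) and N4BP1 (0.108). The nearest to SLC1A4 was YARS, the cytosolic tyrosyl-tRNA synthetase (0.0667), and then CAPN2 (0.0730). SLC7A5 had TCIRG1 (0.0643) and SURF1 (0.0730), SLC38A1 had FAM21A (0.0512) and CHRM3 (0.0782), SLC7A6 had LENG8 (0.110) and PKD2 (0.123), and SLC7A1 had CNOT1 (0.0407). All distances share the same 8 libraries and are given as a description.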

How the data were processed

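RNA-seq libraries of MM1.S cells were analysed. The deposited table holds log2 values that its column headers call normalized. Per the submitters' processing notes, DESeq2 1.38.2, STAR 2.4.2 and Salmon 0.1.19 were used with build hg19; their roles are not given in the sources used here. From the values, they follow a variance-stabilizing transformation with a shared minimum of 5.967655733, the value of 0 reads. Its closed-form inverse gave whole reads, within 0.01, for 130360 of 130360 values, and size factors equal to median-of-ratios factors.

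Tested genes reached 10 reads, scaled to the median library, in 2 or more libraries and 15 reads in all (14164; 2131 left out). Log2 of normalized reads plus 1 was fitted with limma 3.58.1 (trend, robust, statmod 1.5.0) in R 4.3.3, all 4 groups in 1 fit, in 6 pairwise comparisons. Adjusted p-values are Benjamini-Hochberg.

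All 10 members are named; of each list, up to 4 called genes with the largest change and at least 50 mean normalized reads, plus ATF4, MYC and NFE2L2, and 2 nearest genes per member, of which 1 is not reported here. Members and lists were chosen with earlier results of these data known. The alternatives tried are scaling, filter, pseudocount, values tested, samples in the fit, variance model, replicate block, voom and leaving out each library.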

Additional observations from a re-analysis of the deposited data

How the results depend on the processing

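In MS177 against DMSO, the 8 transporters that rose and SLC7A6, which fell, kept their direction and their call under all 10 alternative settings and without each of the 4 libraries. SLC43A1 ranged from 1.85 (the deposited log2 values) to 2.41 and SLC7A11 from 1.55 (the deposited log2 values) to 1.94 under the settings, and SLC7A6 from -0.25 to -0.16 (total-read scaling, limma adjusted p = 0.0253). Total-read scaling put the median log2 fold change of all tested genes at 0.09, against 0.00 with the authors' size factors. No member was called in MS177N1 or C24 against DMSO, or in MS177N1 against C24, under any of these. Over all tested genes, deviations of same-numbered libraries correlated between -0.06 and 0.06 across pairs of groups. Genes with few reads weigh as much as others in this value, so it cannot show whether replicate numbers pair the samples. Beyond the calls of SLC7A1 in the report, the replicate block put SLC7A1 past the threshold against C24 (0.15), and it moved the genes called from 5 to 11 in MS177N1 against DMSO and from 13 to 20 in C24 against DMSO. The 5 genes called in MS177N1 against DMSO became 3 with total-read scaling, 1 without the robust option, 8 with the deposited values and with voom, 9 with a pseudocount of 5, 17 with only the 2 groups compared, and 0 to 4 with a library left out, where 0 came without DMSO replicate 2. The 2 genes called in MS177N1 against C24 became 1 with a pseudocount of 5, 28 with only the 2 groups compared, and 0 to 2 with a library left out (0 without C24 replicate 1 or 2, 1 without MS177N1 replicate 1). The cause was not tested. Small changes are limited by 2 libraries per group: the SE of the members lay between 0.04 and 0.15.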

Other observations

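Among the other amino acid transporters, 4 further genes singled out after their values were seen moved in both directions with MS177 against DMSO. SLC43A2, the paralog of SLC43A1 for large neutral amino acids, had 1298 and 1323 normalized reads with MS177 and 708 and 650 in DMSO (log2 fold change 0.95, SE 0.08, limma adjusted p = 8.97e-08). CTNS, which exports cystine from the lysosome, had 908 and 909 with MS177 and 495 and 425 in DMSO (0.98, SE 0.10, limma adjusted p = 2.84e-07). SLC38A5, a glutamine and serine carrier related to SLC38A1 and SLC38A2, had 5073 and 5236 with MS177 and 7250 and 7302 in DMSO (-0.50, SE 0.04, limma adjusted p = 8.73e-08), so that the tested members of the SLC38 family did not all move one way. SLC16A10, a carrier of aromatic amino acids, averaged 308 with MS177 and 513 in DMSO (-0.74, SE 0.11, limma adjusted p = 2.72e-05). Other carriers known from lysosomes, also named after their values were seen, moved in both directions. SLC38A9 was at 0.44 (SE 0.09), SLC38A7 at 0.46 (SE 0.12), PQLC2 at 0.49 (SE 0.14) and MFSD12 at 0.24 (SE 0.06). These were called higher by limma, as CTNS was. SLC36A1 was at -0.82 (SE 0.17) and SLC36A4 at -0.43 (SE 0.10), both called lower by limma. SLC15A4 was at 0.20 (SE 0.09) and not called.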
